A study of Mus musculus with 16 samples.

Results

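The 10 genes described here, Lyz2, Cd74, H2-Aa, H2-Ab1, H2-Eb1, Csf1r, Adgre1, Cd68, Ctss and Tyrobp, are markers of macrophages and of antigen presentation by major histocompatibility complex (MHC) class II. They were chosen by gene name from a mouse kidney expression table of 30277 genes, and all 10 were found. Their levels were compared between kidneys of Kl/Kl mice, which are homozygous for the recessive Klotho mutation and are labelled as having renal failure, and kidneys of control mice labelled as having healthy renal function. The higher levels of Lyz2 and Cd74 in Kl/Kl kidneys were the largest mean differences among the 8 of these genes that were tested, at 0.82 and 0.58 on the log2(TPM + 1) scale. The median of all tested genes was 0.14 on that scale. That scale understates changes of low genes, and Tyrobp averaged 1.13 TPM over 16 libraries, against 12.1 TPM for Cd74. Other scales may therefore order the genes otherwise, and Ctss and Adgre1 were too low to be tested on this one. The Cd74 mean was 0.41 without female control 3 and the Lyz2 mean 0.69 without Kl/Kl male 3, the libraries that stood apart. No gene of the 10 passed an adjusted p of 0.05 in males, in females or in the mean of the sexes.

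The data are sequenced polyadenylated RNA of whole kidneys from 16 C57Bl/6J mice, with 4 animals in every group. The Kl/Kl males were 47, 49, 46 and 59 days old and the male controls 47, 47, 46 and 48 days, with replicates 1 and 2 of those controls +/Kl and replicates 3 and 4 +/+. The Kl/Kl females were 47, 47, 48 and 52 days old and the female controls 47, 47, 57 and 48 days, and all 4 female controls were +/Kl. All animals were congenic, and kidneys were perfused and frozen; the labels describe no sorting of cells. The values are TPM, the deposited transcript abundance, a level per gene length and per library. In such bulk samples fewer cells of a type and less RNA per cell cannot be told apart.

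Kl itself, the mutated gene, had 0.258 to 1.49 TPM in Kl/Kl males against 7.82 to 11.7 TPM in male controls, and 0.0728 to 0.222 TPM in Kl/Kl females against 2.04 to 5.73 TPM in female controls, so the groups did not overlap in either sex. Recovered reads, that is TPM turned back into read numbers, came to 13027128 to 20100348 in the male libraries and 8205934 to 14498754 in the female ones. A pair of libraries stood apart. Female control 3, from an animal of 57 days, had the fewest reads, and ribosomal RNA genes made up 15.2% of its TPM against 3.32% to 6.18% in the other 15 libraries. Kl/Kl male 3 had 814 TPM of Apoe, an apolipoprotein gene expressed by macrophages among other cells, against 51.6 to 253 TPM elsewhere, and a summed 6.95 TPM of 5 neutrophil markers against at most 1.34 TPM elsewhere. For the 8 tested genes of those described here, deposited Kl/Kl differences within a sex that moved by over 1.5 times without either library are given with and without it. For Ctss and Adgre1, which were not tested on that scale, this holds for differences of read numbers. All deposited female differences of these 8 tested genes are also given without female control 3. Other values, among them those of tested genes of the lists further below, are given without these libraries only in part. A list gene given only with all libraries, such as Rfxap in females, is not thereby shown to be stable.

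MHC class II molecules are pairs of an alpha and a beta chain that display peptides from taken-up material to helper T cells. The invariant chain Cd74 escorts the new pairs to endosomes, where cathepsin S (Ctss) trims it so that peptide can bind. In the mouse kidney the network of resident macrophages carries these molecules, as do dendritic cells and B cells. Macrophages depend on the receptor Csf1r for survival, carry the adhesion receptor Adgre1 (F4/80) on their surface, store Cd68 in lysosomes, secrete lysozyme (Lyz2) and pass on signals of several receptors through the adaptor Tyrobp (DAP12). Transcription of class II genes needs the coactivator Ciita, which binds no DNA itself and is held at promoters by factors on the X and Y boxes.

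Promoters are shown for H2-Aa and H2-Eb1, the only class II chain genes of the 10 that the promoter table used here holds. Whether their sequences bear on their levels was not tested. RefSeq's table for GRCm38.p6 holds 250 bases before and 50 bases after the start of 5 of the 10 genes. The H2-Aa promoter lies at chr17:34287774-34288073 on the minus strand and the H2-Eb1 promoter at chr17:34305617-34305916 on the plus strand. Both are printed 5′ to 3′ along the gene, with capitals marking GCAAC, a core of the X box, and GATTGG, the Y box; CCAATC in H2-Eb1 is GATTGG on the other strand.
H2-Aa: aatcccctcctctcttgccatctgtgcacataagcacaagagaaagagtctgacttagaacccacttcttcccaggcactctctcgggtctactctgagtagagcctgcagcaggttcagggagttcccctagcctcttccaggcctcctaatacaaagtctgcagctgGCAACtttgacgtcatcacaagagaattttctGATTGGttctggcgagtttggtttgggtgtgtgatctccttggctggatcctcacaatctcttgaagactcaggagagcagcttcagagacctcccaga
H2-Eb1: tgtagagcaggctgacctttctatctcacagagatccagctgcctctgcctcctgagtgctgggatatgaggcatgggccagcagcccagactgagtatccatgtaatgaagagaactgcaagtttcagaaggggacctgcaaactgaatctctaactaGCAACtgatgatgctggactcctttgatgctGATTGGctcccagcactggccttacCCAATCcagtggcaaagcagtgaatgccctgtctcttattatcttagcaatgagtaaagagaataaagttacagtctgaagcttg

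In H2-Aa, GCAAC begins at −81 and GATTGG at −49, counted from 0 at the first base after the 250 upstream bases, and 27 bases lie between them. In H2-Eb1, GCAAC begins at −91 and GATTGG at −60, with 26 bases between them, and the reverse-strand GATTGG lies nearer to the start. GCAAC followed by GATTGG at a distance of 20 to 30 bases, searched on both strands, was found in 67 of 32851 promoters of the same length (0.204%). GATTGG alone was found in 16.1% and GCAAC alone in 35.2% of them. The spaced pair was also found in H2-Oa, H2-Ob and H2-Eb2, 3 of the 12 genes of an 18-gene class II pathway list that have a promoter in the table. The promoters of Lyz2, Cd68 and Ctss did not hold the pair. GAGGAA, a core recognised by the myeloid factor PU.1, occurred 2 times each in Cd68 and Ctss, in none of Lyz2, H2-Aa and H2-Eb1, and in 28.3% of all promoters. The motifs were picked from known class II and myeloid elements after the sequences were seen, and a match is a description of the letters.

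Levels between genes can be compared only per length of mature transcript, so recovered reads were divided by merged exon length and by library size, as RPKM on exon length. On that scale, the mean over 16 libraries was 76.6 RPKM for Cd74, 34.5 for H2-Eb1, 23.7 for H2-Ab1, 23.7 for Lyz2, 17.7 for H2-Aa, 10.6 for Ctss, 9.30 for Csf1r, 7.97 for Tyrobp, 2.10 for Cd68 and 1.026 for Adgre1. Cd74 lay above H2-Eb1, H2-Eb1 above H2-Ab1, H2-Aa above Ctss and Tyrobp above Cd68 in all 16 libraries, and Cd68 lay above Adgre1 in 15. The neighbours H2-Ab1 and Lyz2, Lyz2 and H2-Aa, Ctss and Csf1r, and Csf1r and Tyrobp kept their order in only 10 or 11 of 16 libraries. Exon lengths came from another annotation release than the authors used, so this order depends on the gene models, for large gaps as well. H2-Aa and H2-Eb1 had similar mean reads, 951 and 940. Their merged exon lengths of 3798 and 1944 bases set them at 17.7 and 34.5 RPKM.

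Differences between groups below are Kl/Kl minus control on log2(TPM + 1), each with its standard error (SE), from 1 limma model of all 16 libraries. Only the 8059 genes with at least 1 TPM in at least 4 libraries were tested; Ctss and Adgre1 fell below this, and their values come from the model without the filter or from a model of recovered reads (limma voom, 17406 genes with at least 10 reads in at least 4 libraries). The deposited scale itself was shifted: the median difference of all 8059 genes was 0.18 in males, 0.10 in females and 0.14 in their mean. Values after median-ratio scaling of TPM, which puts that median within 0.01 of 0, are therefore given beside the deposited ones.

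**Figure D1:**
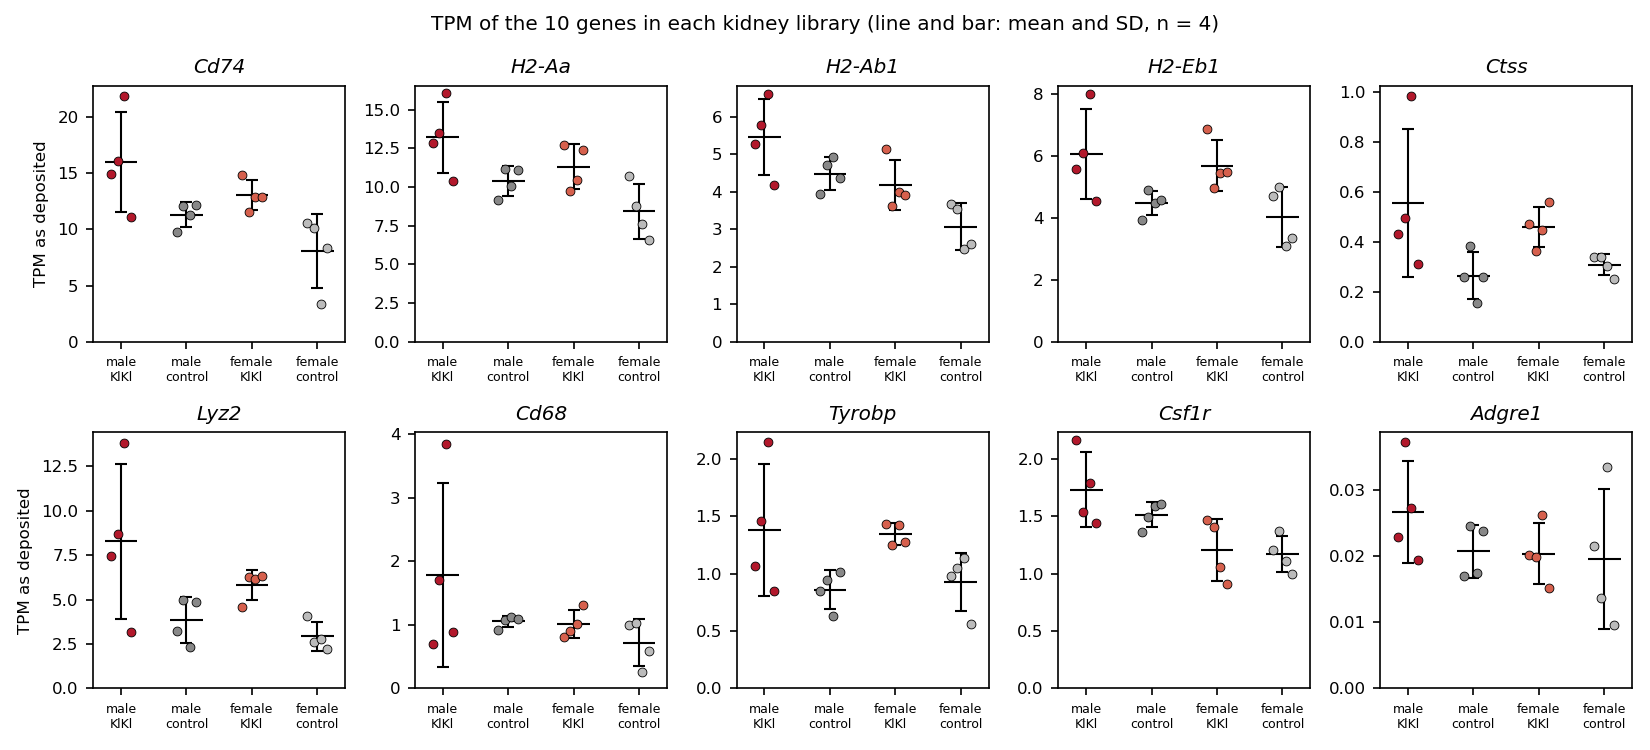
TPM as deposited of the 10 genes in each of 16 kidney libraries, 1 panel a gene with its own axis from 0, with Kl/Kl left of control in males and then females. Points are libraries, and lines and bars are means and SD of 4 animals; Lyz2 averaged 8.28 TPM in Kl/Kl males and 3.85 TPM in male controls, with Kl/Kl male 3 at 13.8 TPM.

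Among the class II genes, Cd74 (ENSMUSG00000024610, mm39 chromosome 18, 60936920 to 60945725, plus strand) had 14.9, 16.1, 21.8 and 11.05 TPM in Kl/Kl males, against 9.72, 12.1, 11.3 and 12.1 TPM in male controls. In Kl/Kl females it had 14.8, 11.6, 12.8 and 12.9 TPM, against 10.6, 10.1, 3.36 and 8.31 TPM in female controls. The male groups overlapped through Kl/Kl male 4, the oldest animal at 59 days, while every Kl/Kl female lay above every female control. Means were 15.96 ± 4.45 TPM in Kl/Kl males and 11.3 ± 1.12 TPM in male controls, and 13.04 ± 1.34 TPM in Kl/Kl females and 8.08 ± 3.29 TPM in female controls (SD, n = 4 each). The difference was 0.43 (SE 0.25, adjusted p = 0.313) in males and 0.72 (SE 0.25, adjusted p = 0.727) in females. The lowest value, 3.36 TPM, was that of female control 3; without it the female controls averaged 9.65 ± 1.19 TPM (SD, n = 3) and the female difference was 0.40 (SE 0.17, adjusted p = 0.979). Without Kl/Kl male 3 the male difference was 0.28. After median-ratio scaling the differences were 0.19 in males, 0.07 without Kl/Kl male 3, and 0.57 in females, 0.29 without female control 3.

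The alpha chain H2-Aa (ENSMUSG00000036594, mm39 chromosome 17, 34501718 to 34506798, minus strand) had 10.4 to 16.1 TPM in Kl/Kl males against 9.14 to 11.2 TPM in male controls. It had 9.73 to 12.7 TPM in Kl/Kl females against 6.59 to 10.7 TPM in female controls. Both pairs of groups overlapped. The difference was 0.31 (SE 0.15, adjusted p = 0.261) in males and 0.40 (SE 0.15, adjusted p = 0.727) in females, and 0.07 and 0.24 after median-ratio scaling. Without female control 3 the female difference was 0.36, and without Kl/Kl male 3 the male difference was 0.22.

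The beta chain H2-Ab1, which pairs with H2-Aa (ENSMUSG00000073421, mm39 chromosome 17, 34476663 to 34488394, plus strand), had 5.27, 5.78, 6.61 and 4.18 TPM in Kl/Kl males, against 3.94, 4.72, 4.91 and 4.36 TPM in male controls. In Kl/Kl females it had 5.14, 3.62, 3.99 and 3.92 TPM, against 3.68, 3.54, 2.47 and 2.60 TPM in female controls. The groups overlapped through Kl/Kl male 4 in males and Kl/Kl female 2 in females. The difference was 0.23 (SE 0.14, adjusted p = 0.318) in males and 0.35 (SE 0.14, adjusted p = 0.727) in females. After median-ratio scaling it was 0.01 in males and 0.22 in females, and in the model of recovered reads −0.03 and 0.27. Leaving out Kl/Kl male 3 gave 0.14 in males on the deposited scale and −0.04 after median-ratio scaling, and without female control 3 the deposited female difference was 0.28.

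The beta chain H2-Eb1 (ENSMUSG00000060586, mm39 chromosome 17, 34524841 to 34535649, plus strand) had 5.58, 6.10, 8.01 and 4.56 TPM in Kl/Kl males, against 3.95, 4.90, 4.47 and 4.58 TPM in male controls. In Kl/Kl females it had 6.86, 4.97, 5.44 and 5.49 TPM, against 4.71, 5.01, 3.08 and 3.34 TPM in female controls. Again 1 Kl/Kl library in each sex lay within the control range. The difference was 0.35 (SE 0.15, adjusted p = 0.241) in males and 0.42 (SE 0.15, adjusted p = 0.727) in females, and 0.13 and 0.29 after median-ratio scaling. With Kl/Kl male 3 left out, the male difference was 0.22 on the deposited scale and 0.04 after median-ratio scaling, and without female control 3 the deposited female difference was 0.33. H2-Eb1 overlaps the antisense RNA Gm20513, and since the sources used here do not state whether counting used the strand, reads of the pair may be mixed.

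Ctss (ENSMUSG00000038642, mm39 chromosome 3, 95434097 to 95463715, plus strand) had 0.432, 0.493, 0.981 and 0.312 TPM in Kl/Kl males, against 0.257, 0.383, 0.153 and 0.259 TPM in male controls. In Kl/Kl females it had 0.469, 0.361, 0.446 and 0.558 TPM, against 0.339, 0.340, 0.304 and 0.251 TPM in female controls. All 4 Kl/Kl females lay above all 4 female controls, and the lowest Kl/Kl male lay within the male control range. These low TPM rest on 100 to 385 reads per library, because TPM here divides by the whole span of the gene. In the model of recovered reads Ctss differed by 0.74 (SE 0.28, adjusted p = 0.655) in males and 0.39 (SE 0.28, adjusted p = 1.0) in females. The male difference was 0.49 without Kl/Kl male 3, and the female difference 0.42 without female control 3. The pseudogene Hmgb1-ps5 lies within the gene.

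Among the macrophage genes, Lyz2 (ENSMUSG00000069516, mm39 chromosome 10, 117113236 to 117118227, minus strand) had 7.43, 8.68, 13.8 and 3.17 TPM in Kl/Kl males, against 3.22, 4.97, 2.34 and 4.87 TPM in male controls. In Kl/Kl females it had 4.57, 6.28, 6.13 and 6.30 TPM, against 4.08, 2.60, 2.79 and 2.24 TPM in female controls. In males 3 of 4 Kl/Kl libraries lay above every control and Kl/Kl male 4 lay within the control range; in females the groups did not overlap. Means were 8.28 ± 4.39 TPM in Kl/Kl males and 3.85 ± 1.29 TPM in male controls, and 5.82 ± 0.835 TPM in Kl/Kl females and 2.93 ± 0.799 TPM in female controls (SD, n = 4 each). The difference was 0.84 (SE 0.29, adjusted p = 0.219) in males, 0.81 (SE 0.29, adjusted p = 0.727) in females and 0.82 (SE 0.21, adjusted p = 0.155) in their mean. Without female control 3 the female difference was 0.80, and without Kl/Kl male 3 the male difference was 0.57. Leaving out Kl/Kl male 4 instead gave 1.18 in males and a mean of 0.99 with an adjusted p of 0.026, where 11 of the 8059 genes passed (0.136%), the only call of a Kl/Kl difference among the 8 tested genes when single libraries were left out. Over all 35 alternatives the adjusted p of that mean ran from 0.0144 to 0.821, with differences of 0.53 to 0.99. After median-ratio scaling Lyz2 differed by 0.60 in males, 0.37 without Kl/Kl male 3, and 0.69 in females; the lowest Kl/Kl female, at 4.58 scaled TPM, then lay just above the highest female control at 4.55. Lyz1, the near-identical paralog expressed in Paneth cells, was listed at no more than 0.126 TPM.

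Tyrobp (ENSMUSG00000030579, mm39 chromosome 7, 30113185 to 30117011, plus strand) had 1.06, 1.46, 2.15 and 0.847 TPM in Kl/Kl males, against 0.848, 0.942, 0.629 and 1.02 TPM in male controls. In Kl/Kl females it had 1.43, 1.25, 1.43 and 1.28 TPM, against 0.975, 1.05, 1.13 and 0.560 TPM in female controls. The Kl/Kl females lay in a narrow band above the female controls, while the male groups overlapped. The difference was 0.33 (SE 0.14, adjusted p = 0.235) in males and 0.29 (SE 0.14, adjusted p = 0.727) in females, and 0.18 and 0.21 after median-ratio scaling, where female control 3 had 1.56 scaled TPM and lay above all 4 Kl/Kl females. In males it was, with Kl/Kl male 3 left out, 0.19 as deposited and 0.07 after median-ratio scaling, and without female control 3 the deposited female difference was 0.34. Its 36 to 109 reads per library limit the precision.

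Cd68 (ENSMUSG00000018774, mm39 chromosome 11, 69555039 to 69556980, minus strand) had 0.698, 1.71, 3.85 and 0.880 TPM in Kl/Kl males, against 0.920 to 1.12 TPM in male controls. It had 0.810 to 1.32 TPM in Kl/Kl females, against 1.00, 1.031, 0.258 and 0.583 TPM in female controls. Kl/Kl males 1 and 4 lay below every male control, and the lowest value of all, in female control 3, rests on 6 reads. The male difference was 0.31 (SE 0.25, adjusted p = 0.408) with Kl/Kl male 3 and 0.00 without it; in the model of recovered reads it was −0.25 without that library. The female difference was 0.25 (SE 0.25, adjusted p = 0.747), and 0.11 without female control 3. After median-ratio scaling Kl/Kl males averaged 1.36 ± 1.01 scaled TPM, with Kl/Kl male 3 at 2.77, against 0.977 ± 0.0842 in male controls. Kl/Kl females then averaged 1.11 ± 0.325 against 0.850 ± 0.372 in female controls (SD, n = 4 each).

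Csf1r (ENSMUSG00000024621, mm39 chromosome 18, 61233670 to 61265222, plus strand) had 1.44 to 2.17 TPM in Kl/Kl males against 1.37 to 1.61 TPM in male controls, and 0.907 to 1.46 TPM in Kl/Kl females against 0.994 to 1.37 TPM in female controls. The groups overlapped in both sexes. The difference was 0.11 (SE 0.10, adjusted p = 0.452) in males and 0.02 (SE 0.10, adjusted p = 0.954) in females, or 0.01 without female control 3. Median-ratio scaling turned the sign, to −0.04 and −0.08, and the model of recovered reads gave −0.12 and −0.15. Csf1r overlaps Hmgxb3 on the opposite strand.

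Adgre1 (ENSMUSG00000004730, mm39 chromosome 17, 57665691 to 57790528, plus strand) had 0.0193 to 0.0372 TPM in Kl/Kl males against 0.0169 to 0.0246 TPM in male controls, and 0.0151 to 0.0262 TPM in Kl/Kl females against 0.00954 to 0.0334 TPM in female controls. The highest female value was that of female control 3. With 20 to 84 reads per library, the difference in the model of recovered reads was 0.07 in each sex, 0.11 in males without Kl/Kl male 3 and 0.32 in females without female control 3.

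Over the 8 tested genes, the Kl/Kl minus control difference was above 0 in 8 of 8 in males, in females and in the mean. These counts are on the deposited scale, with median differences of 0.32, 0.37 and 0.33. There the medians of all 8059 genes were 0.18, 0.10 and 0.14, so most genes lay above 0 as well. The same holds where genes of the lists below are counted as above 0 on that scale. After median-ratio scaling the difference was above 0 in 7 of 8 in each, all but Csf1r, with medians of 0.15, 0.23 and 0.19. Without Kl/Kl male 3 the deposited male median was 0.20, and after median-ratio scaling 5 of 8 were above 0 in males, with H2-Ab1, Cd68 and Csf1r below. None of the 8 passed an adjusted p of 0.05 in males, where 8 of all 8059 genes passed (0.0993%), in females, where 1 passed (0.0124%), or in the mean, where 3 passed (0.0372%). At an unadjusted p under 0.05 there were 3 of the 8 genes in males, 5 in females and 6 in the mean, beside 1603, 376 and 2121 of the 8059 genes. After median-ratio scaling the counts were 1, 4 and 4 of 8, beside 393, 294 and 452 genes. Without Kl/Kl male 3 the deposited count in males was 0 of 8, beside 849 genes. In the model of recovered reads 0 of 10 passed, while 6 of 17406 genes passed in males (0.0345%), 2 in females (0.0115%) and 4 in the mean (0.0230%). There 2 of the 10 genes in males, 4 in females and 5 in the mean had an unadjusted p under 0.05, beside 1078, 442 and 1045 of 17406 genes; without Kl/Kl male 3 there were 0 in males and 2 in the mean, beside 769 and 820 genes.

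With age as a further term, 6 of the 8 genes passed in the mean, Lyz2, Cd74, H2-Aa, H2-Ab1, H2-Eb1 and Tyrobp, with adjusted p from 0.024 to 0.043; that fit called 1407 of the 8059 genes (17.5%). In males 3 passed with age, Lyz2, Cd74 and H2-Eb1, at 0.040 to 0.042, where 909 of the 8059 genes passed (11.3%). With age and median-ratio scaling together none passed, and the mean difference of Lyz2 was 0.68 (SE 0.19, adjusted p = 0.457). With library weights 4 of the 8 passed in the mean, where 536 genes passed (6.65%), and with library weights and median-ratio scaling 3 passed in females, where 776 genes passed (9.63%).

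No gene of the 10 had all 4 Kl/Kl males above all 4 male controls, a pattern that 11.6% of the 8059 tested genes had on the deposited scale and 2.16% after median-ratio scaling. In females Lyz2, Cd74, Ctss and Tyrobp had it, 3 of them among the 8 tested, against 2.79% of the tested genes. After median-ratio scaling Lyz2 and Cd74 had it, against 0.745%. Without female control 3 it was these 4 genes on either scale, against 6.23% of the tested genes on the deposited scale and 2.42% after median-ratio scaling. Since none had it in males, none of the 10 had it in both sexes, a pattern of 0.649% of 17406 genes on the deposited scale and 0.0632% after median-ratio scaling.

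**Figure D2:**
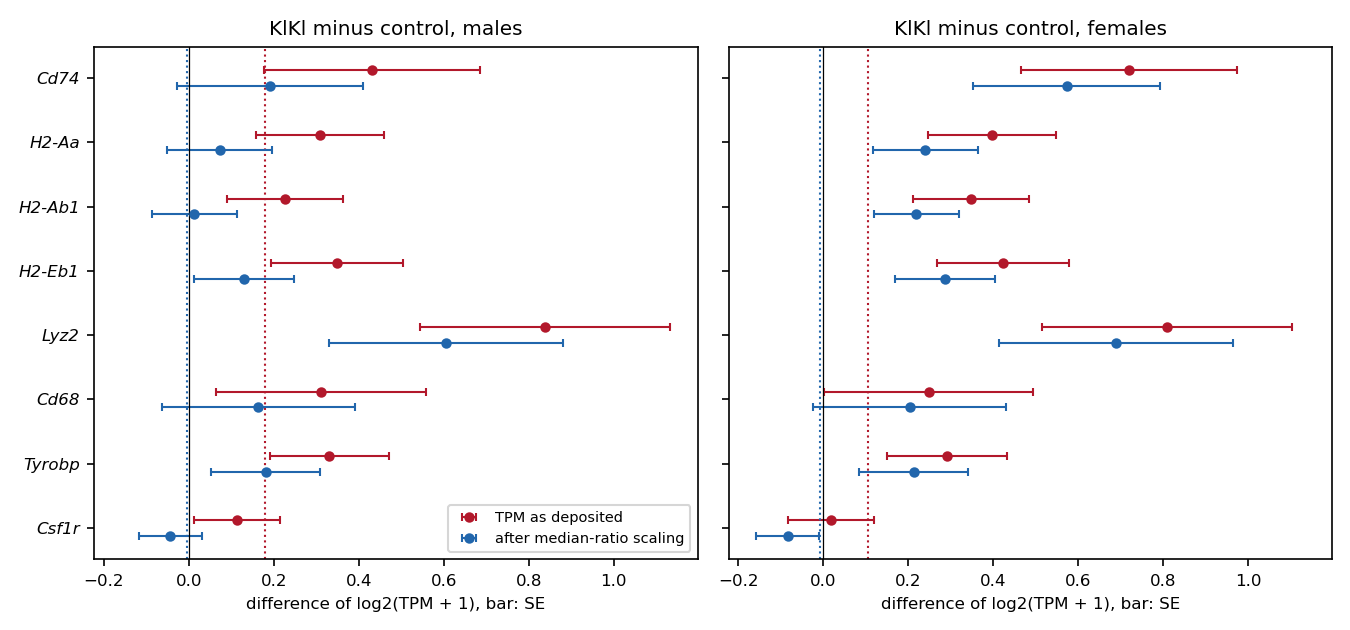
Kl/Kl minus control difference of log2(TPM + 1) for the 8 tested genes, with males and females in separate panels, for TPM as deposited and after median-ratio scaling; points are differences, bars are SE and dotted lines are the medians of all 8059 genes. Lyz2 lies farthest right, at 0.84 in males and 0.81 in females as deposited, and Csf1r lies on either side of 0.

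Whether the Kl/Kl difference itself depended on sex was tested as the male difference minus the female difference. It was 0.03 (SE 0.42) for Lyz2, −0.29 (SE 0.36) for Cd74, −0.09 (SE 0.21) for H2-Aa, −0.12 (SE 0.19) for H2-Ab1 and −0.08 (SE 0.22) for H2-Eb1. It was 0.04 (SE 0.20) for Tyrobp, 0.06 (SE 0.35) for Cd68 and 0.10 (SE 0.14) for Csf1r. All 8 adjusted p were 1.0, and 0 of the 8059 genes passed (0.0%), with 175 genes at an unadjusted p under 0.05; in the model of recovered reads 0 passed and 413 of 17406 had an unadjusted p that low. For Cd74 the value was 0.03 (SE 0.24) without female control 3. Without Kl/Kl male 3 the value was above 0 in 1 of the 8 genes, against 4 with it, and was −0.24 for Lyz2 and −0.25 for Cd68. With SE of 0.14 to 0.42, a sex dependence of the size of the SE was not detectable.

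Library names fall into series beginning CFK and CFdk, each holding 2 libraries of every group. Within them the median deposited difference of the 8 genes was 0.32 and 0.37 in males (CFK, CFdk), and 0.21 and 0.61 in females. After median-ratio scaling it was −0.002 and 0.26 in males, with 4 and 7 of 8 genes above 0, and 0.16 and 0.39 in females, with 7 of 8 in each. As deposited, Lyz2 differed by 0.85 and 0.83 in males and by 0.58 and 1.04 in females. Female control 3 belongs to the CFdk series, in which Cd74 differed by 1.12 in females, against 0.32 in CFK.

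The 10 genes did not move as 1 block across libraries. With scaled reads of 16 libraries, H2-Aa, H2-Ab1 and H2-Eb1 had pairwise correlations of 0.62 to 0.82, and Cd74 with these 0.47 to 0.71. Without Kl/Kl male 3 and female control 3 these ranges were 0.58 to 0.83 and 0.67 to 0.91. Lyz2, Cd68, Ctss and Tyrobp had 0.24 to 0.86 among themselves, or 0.31 to 0.87 without those libraries. Between these sets values reached as high. Cd74 and the H2 genes had 0.15 to 0.76 with Lyz2, Cd68, Ctss and Tyrobp, or 0.32 to 0.88 without those libraries. Csf1r had −0.50 to 0.00 with the other 9, or −0.47 to −0.03 without them. Adgre1 had −0.42 to 0.55, or −0.19 to 0.68 without them, and its correlation with Cd74 went to 0.49 without them, against −0.42 with them. These values describe 16 libraries that share groups and depth, and they carry no test. Kl/Kl male 3 was the highest of 16 libraries for 8 genes on the deposited scale and for Lyz2, Cd74, Cd68 and Ctss after median-ratio scaling. Female control 3 was the lowest in deposited TPM for Cd74, H2-Ab1, H2-Eb1 and Cd68, and female control 4 for Lyz2, H2-Aa, Adgre1 and Tyrobp.

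**Figure D3:**
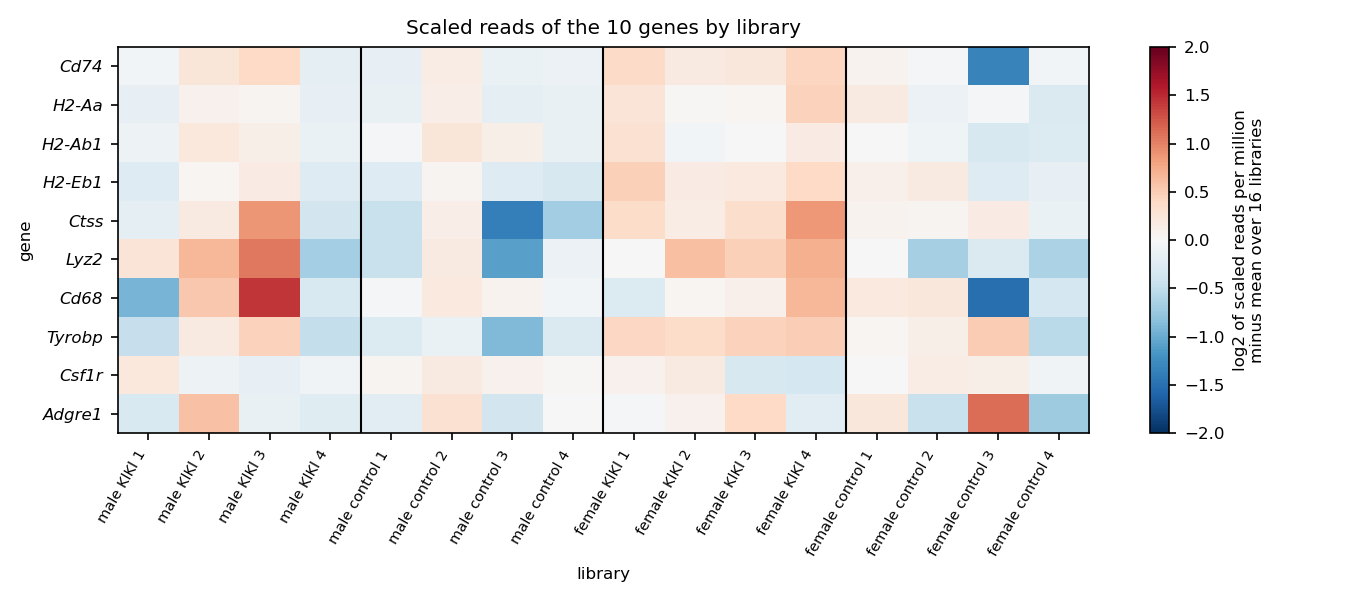
Scaled reads of the 10 genes (rows) in 16 libraries (columns, Kl/Kl before control, males before females), as log2 minus the mean of that gene over all libraries. Kl/Kl male 3 stands high for Lyz2, Cd68 and Ctss, Cd74 stands low in female control 3, and the Csf1r row varies little.

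Ratios of reads within a library remove any scaling between libraries. Lyz2 per Csf1r was 0.542, 0.894, 1.22 and 0.349 in Kl/Kl males, against 0.233 to 0.525 in male controls, and 0.494 to 1.10 in Kl/Kl females, against 0.299 to 0.534 in female controls. Its means were 0.751 ± 0.385 in Kl/Kl males and 0.402 ± 0.130 in male controls, and 0.804 ± 0.262 in Kl/Kl females and 0.397 ± 0.0999 in female controls (SD, n = 4 each), with 1 Kl/Kl library within the control range in each sex. Cd74 per H2-Aa was 0.763 in female control 3 and 1.71 to 2.35 in the other 15 libraries, so the low Cd74 of that library was not shared by H2-Aa. The depth and ribosomal share of female control 3 stand beside this value, and their part in it was not tested.

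H2-Eb1 per H2-Ab1 was 0.972 to 1.12 in Kl/Kl males and 0.839 to 0.967 in male controls, and 1.23 to 1.29 in Kl/Kl females and 1.15 to 1.30 in female controls. Every one of the 8 male libraries lay below every one of the 8 female libraries. Of the 45 ratios between pairs of the 10 genes this was the 1 in which the sexes did not overlap, and also the 1 in which Kl/Kl males and male controls did not overlap; in females there were 0 of 45. The ratio was singled out after its values were seen, and no test is given. How often ratios of other gene pairs separate these groups was not counted.

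**Figure D4:**
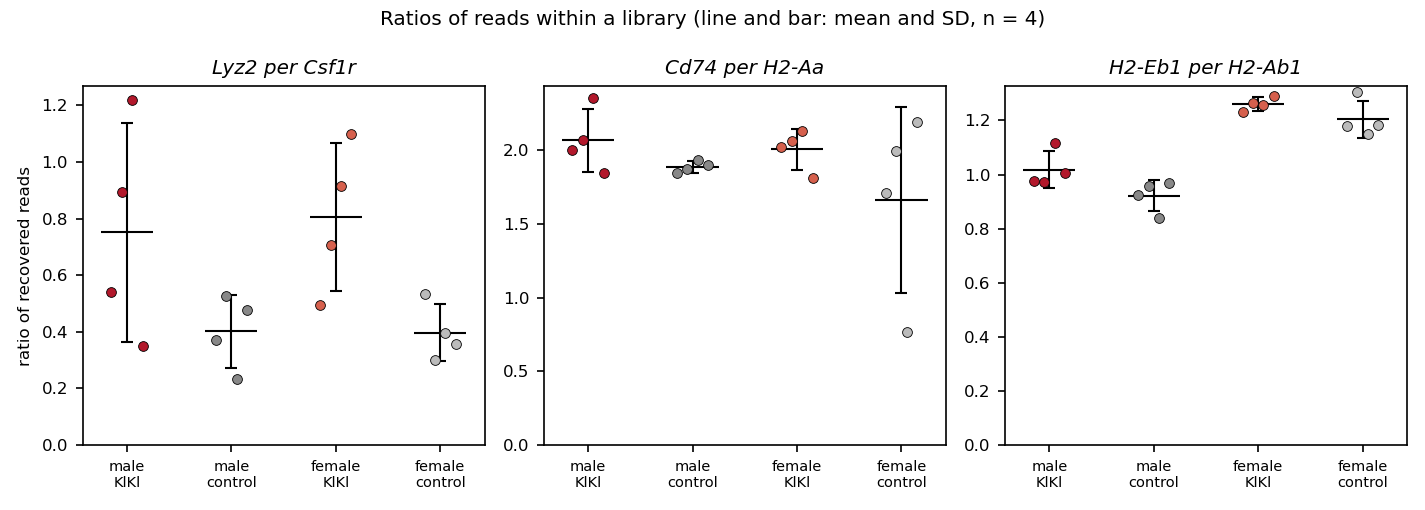
Ratios of recovered reads within each library for 3 pairs of the 10 genes, with Kl/Kl left of control in males and then females. Points are libraries, and lines and bars are means and SD of 4 animals; H2-Eb1 per H2-Ab1 averages 1.02 and 0.922 in the male groups and 1.26 and 1.20 in the female groups.

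Sex differences, given as male minus female, depended on the scale. The median of all 8059 genes was 0.33 in Kl/Kl kidneys and 0.26 in controls on the deposited scale, and 4406 (54.7%) and 4236 (52.6%) of the genes passed there. Among the 8 tested genes Csf1r passed in Kl/Kl kidneys, at 0.31 (SE 0.10, adjusted p = 0.017), with 1.73 ± 0.326 TPM in Kl/Kl males and 1.21 ± 0.269 TPM in Kl/Kl females (SD, n = 4 each). Relative to other genes the difference was 0.02 after median-ratio scaling and 0.07 in the model of recovered reads, and the deposited call was lost without Kl/Kl male 1 or without Kl/Kl female 4. In controls H2-Ab1 passed, at 0.44 (SE 0.14, adjusted p = 0.014), with 4.48 ± 0.428 TPM in male controls and 3.07 ± 0.625 TPM in female controls; after median-ratio scaling it was 0.13 (adjusted p = 0.307).

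H2-Eb1 went the other way once scaled. In Kl/Kl kidneys it was 0.06 (SE 0.15, adjusted p = 0.747) on the deposited scale. After median-ratio scaling it was −0.34 (SE 0.12, adjusted p = 0.033), where 36.2% of genes passed, and in the model of recovered reads −0.39 (SE 0.13, adjusted p = 0.038), where 28.6% passed, so it was lower in Kl/Kl males than in Kl/Kl females relative to other genes. Its adjusted p ran from 0.00198 to 0.961 over 36 alternatives. In controls it was 0.14 on the deposited scale and −0.19 (adjusted p = 0.198) after median-ratio scaling. Library names carry the numbers 17 to 24 once in each sex and male libraries hold more reads, so sex and any separate handling of such sets cannot be told apart.

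Other genes of the pathways were taken as lists. Of 18 class II pathway genes 16 were matched and 6 tested, and 0 passed in males, females or the mean; all 6 differences were above 0 in each, with deposited medians of 0.28, 0.23 and 0.25 and median-ratio scaled medians of 0.09, 0.12 and 0.09. Without Kl/Kl male 3 the deposited male median was 0.17, and without female control 3 the female one was 0.14 with 5 of 6 above 0. The 3 with the highest mean TPM were the endopeptidase gene Lgmn, at 0.33 in males and 0.22 in females, the thiol reductase gene Ifi30, at 0.22 and 0.25, and Rfxap, a subunit of the X box complex, at 0.31 and 0.28. Ifi30 was at 0.05 in females without female control 3 and at 0.14 in males without Kl/Kl male 3, where Rfxap was at 0.19. Ciita was listed at 0.0628 to 0.200 TPM, and the model of recovered reads gave −0.04 in males and 0.09 in females. The names H2-Ea and H2-Ea-ps of that list matched no gene, so H2-Ea could not be analysed.

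Of 13 class I pathway genes, which present peptides to cytotoxic T cells, 9 were tested and 0 passed, with deposited medians of 0.23 in males, 0.14 in females and 0.17 in the mean and median-ratio scaled medians of −0.004, −0.004 and −0.014. H2-K1 differed by 0.42 in males and 0.36 in females, the light chain B2m by 0.23 and 0.06, and the chaperone Calr by −0.02 and −0.08; Calr was at 0.14 in males without Kl/Kl male 3 and at −0.34 in females without female control 3.

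Of 22 other macrophage genes 8 were tested and 0 passed; all 8 were above 0 in each comparison, with deposited medians of 0.42 in males, 0.26 in females and 0.33 in the mean, and median-ratio scaled medians of 0.22, 0.16 and 0.16. The deposited male median was 0.24 without Kl/Kl male 3. Apoe differed by 1.47 in males and 0.55 in females, but by 0.71 in males without Kl/Kl male 3 and by 0.19 in females without female control 3. The complement subunits C1qa and C1qc differed by 0.52 and 0.46 in males, or 0.39 and 0.26 without Kl/Kl male 3, and by 0.19 and 0.33 in females, or 0.34 and 0.41 without female control 3. Of 10 lysosome genes 0 passed, with medians of 0.30 in males, 0.10 in females and 0.19 in the mean, and 0.06, −0.03 and −0.02 after median-ratio scaling; Lamp1, Ctsd and Ctsl differed by 0.13, 0.34 and 0.38 in males and by 0.25, 0.06 and 0.24 in females, where Ctsd was at 0.14 without female control 3. The tested genes Coro1a (pan-leukocyte), Csf2ra and Sirpa (CSF1R and TYROBP signalling), and Cxcl16, Cx3cl1 and Cxcl10 (chemokines) also did not pass.

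Markers of other cells that carry class II or enter with blood were read in the same libraries. Of 7 B and plasma cell genes, whose summed level was 10.7 to 20.8 TPM in Kl/Kl males against 5.94 to 27.9 TPM in male controls, and 7.80 to 16.5 TPM in Kl/Kl females against 6.59 to 9.82 TPM in female controls, 2 were tested and 0 passed. For them, Igkc differed by 0.42 in males, 0.27 without Kl/Kl male 3, and 0.57 in females and Ighm by 0.27 and 0.05. The 7 dendritic cell genes summed to 0.573 to 0.967 TPM in Kl/Kl males and 0.404 to 0.626 TPM in male controls, and to 0.727 to 0.864 TPM in Kl/Kl females and 0.498 to 0.631 TPM in female controls. The 7 T cell genes summed to 0.561 to 1.14 TPM in Kl/Kl males against 0.425 to 0.698 TPM in male controls, and 0.821 to 0.985 TPM in Kl/Kl females against 0.495 to 0.955 TPM in female controls. None of these dendritic or T cell genes reached the level for testing. The 5 NK cell genes summed to at most 0.939 TPM in any library. The 5 neutrophil genes summed to 0.172 to 6.95 TPM in Kl/Kl males and 0.252 to 1.30 TPM in male controls, and to 0.671 to 1.34 TPM in Kl/Kl females and 0.321 to 0.469 TPM in female controls; Mpo was without a read in all groups but Kl/Kl males. The 5 erythrocyte genes summed to 96.0 to 479 TPM in Kl/Kl males against 10.98 to 142 TPM in male controls, and 16.5 to 58.1 TPM in Kl/Kl females against 3.31 to 114 TPM in female controls. The part of these cells in the levels of the 10 genes was not tested.

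The genes most like Tyrobp and Cd74 in pattern were taken as the 5 tested protein-coding genes with the highest correlation of log2(TPM + 1) over 16 libraries. For Tyrobp these were C1qc at 0.96, Hacl1 at 0.89, Gm11808 at 0.89, Arpc1b at 0.86 and Fcer1g at 0.86. For Cd74 they were Zfp740 at 0.93, B4galnt1 at 0.93, Ccdc189 at 0.92, Dmac2 at 0.92 and Hoxb8 at 0.92. Values share library, depth and the deposited scale, and the correlations are descriptions.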

How the data were processed

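RNA-seq of 16 mouse kidneys was deposited by the authors as TPM, made with Partek on genome build mm39, per the submitters' processing notes; the aligner, counting rule and annotation release are not stated there or in the labels. Each library's TPM sums to the same total, and low values followed whole reads divided by the genomic span of a gene; read numbers were recovered from this, and 81.2% of values under 20 reads were whole within 0.1. A count of 0 would allow 3 reads, worth 0.136 to 0.250 TPM for a 1 kb gene; such floors cover counting error only. From the deposited TPM, limma 3.58.1 (R 4.3.3) with a mean-variance trend was fitted to log2(TPM + 1), with 4 group means over 16 libraries, for genes of at least 1 TPM in at least 4 libraries. This scale understates changes of low genes. P-values were adjusted by Benjamini-Hochberg over all 8059 tested genes, threshold 0.05, two-sided, and measure the spread between these animals. Alternatives were voom on recovered reads, other scalings, filters and pseudocounts, covariates (age, name series, replicate block), library weights and leaving out each library. The fits were tested on simulated data. A duplicated gene row was dropped. The genes and lists were chosen with earlier results of these data known. Named genes were the 10, the 3 highest by mean TPM of the lists tested, any that passed, Ciita, and the 5 most correlated with Cd74 and Tyrobp. Kidney cell lists (proximal tubule, distal nephron, endothelial, fibroblast, podocyte) had 0 genes passing in the Kl/Kl comparisons.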

Additional observations from a re-analysis of the deposited data

Results flagged for a closer look

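Lyz2 in Kl/Kl female 1 had 4.57 TPM, far from the other 3 Kl/Kl females at 6.13 to 6.30 TPM. The gap to its nearest neighbour was 0.901 of the group's whole range, above Dixon's 95% critical value for 4 samples. Of 40 groups (10 genes in 4 groups) 1 was marked in this way, where chance marks about 1 in 20.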

How the results depend on the processing

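None of the 8 tested genes passed in males, females or the mean of the Kl/Kl differences. Adding age gave 3 in males and 6 in the mean, with 909 and 1407 genes called overall against 8 and 3; age with median-ratio scaling gave 0. Library weights (fitted without reaching tolerance) gave 4 in the mean (536 of 8059 genes called, 6.65%), and with median-ratio scaling 3 in females (776 genes, 9.63%). Leaving out single libraries gave 0 to 1 in the mean. For the sex difference in Kl/Kl kidneys, 1 gene passed; scaling on nuclear protein-coding genes gave 0, age and library weights gave 2 each, voom and median-ratio scaling without Kl/Kl male 3 gave 2 each, library weights with median-ratio scaling gave 4, and single libraries left out gave 0 to 3. For the sex difference in controls, 1 gene passed; median-ratio scaling (also without Kl/Kl male 3 or female control 3, or with age), scaling on nuclear protein-coding genes, heterozygous controls alone, and voom (also without female control 3) gave 0, library weights with median-ratio scaling gave 2, and single libraries left out gave 1 to 3. The cause was not tested. Many of all genes passed in these sex fits too. In Kl/Kl kidneys 54.7% passed in the main fit, 61.9% with age and 64.7% with library weights. There 58.5% passed with library weights and median-ratio scaling, and 55.9% without Kl/Kl male 4, where 3 of the 8 passed. In controls 52.6% passed in the main fit and 76.1% with library weights and median-ratio scaling.

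In Kl/Kl kidneys the sex difference of H2-Eb1 reversed to −0.34 with median-ratio scaling, −0.43 and −0.34 with it and without Kl/Kl male 3 or female control 3, −0.31 with it and age, −0.39 with voom, and −0.47 and −0.39 with voom without those libraries. Library weights with median-ratio scaling reversed that of Cd74 to −0.32, H2-Aa to −0.29, H2-Eb1 to −0.44 and Csf1r to −0.017, and that of H2-Eb1 in controls to −0.36. Replicate numbers did not pair the samples: 5 of 24 correlations of deviations between same-numbered libraries were over 0.1, and in 5 of the 24 the same number gave the best match. The replicate block left 0 genes passing in the Kl/Kl differences and 1 in each sex difference. Alternatives chosen after seeing the data were those that combine 2 choices or leave out Kl/Kl male 3 and female control 3 together. Depth limits Adgre1, Cd68 and Tyrobp.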

Other observations

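Of the genes of other lists, Gpnmb, Trem2 and Itgax were singled out after their values were seen. Gpnmb (ENSMUSG00000029816, mm39 chromosome 6, 49013480 to 49047864, plus strand) encodes a lysosomal glycoprotein of lipid-laden macrophages. It had 0.1004, 0.143, 1.71 and 0.0531 TPM in Kl/Kl males against 0.00137 to 0.00573 TPM in male controls, and 0.0549 to 0.169 TPM in Kl/Kl females against 0.00173 to 0.0318 TPM in female controls. In reads this was 31 to 779 in Kl/Kl males against 1 to 4 in male controls, and 30 to 105 in Kl/Kl females against 1 to 22 in female controls. Kl/Kl libraries lay above the controls of their sex, which is the pattern it was picked for. That pattern was held by 0.649% of 17406 genes on the deposited scale and 0.0632% after median-ratio scaling. In the model of recovered reads its adjusted p was 0.457 in males, 0.99965 in females and 0.499 in the mean. Without Kl/Kl male 3 it was 0.0134 in the mean, where 10 of 17406 genes passed (0.0575%). With so few control reads no fold is given, and p of a gene picked for its values are no test of it.

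Trem2, a receptor that signals through Tyrobp, had 0.0608 to 0.877 TPM in Kl/Kl males against 0.0243 to 0.0817 TPM in male controls, and 0.114 to 0.244 TPM in Kl/Kl females against 0.0431 to 0.0692 TPM in female controls. Itgax, which encodes CD11c, had 0.0697 to 0.511 TPM in Kl/Kl males against 0.0319 to 0.0802 TPM in male controls, and 0.104 to 0.155 TPM in Kl/Kl females against 0.0310 to 0.0636 TPM in female controls. In both genes the females did not overlap, a pattern of 2.79% of the 8059 tested genes, which do not include them. In each, 1 Kl/Kl male lay within the male control range. Trem2 rests on 13 to 34 reads in Kl/Kl females and 4 to 10 in female controls, and Itgax on 35 to 54 and 11 to 27. In the model of recovered reads the adjusted p was 0.711 for Trem2 and 0.744 for Itgax in males, and 0.99965 for both in females.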
